A study of Mus musculus with 3 samples.

Results

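The genes described here encode 7 mediators through which regulatory T cells (Tregs) restrain other immune cells: Il10, Tgfb1, Ebi3, Fgl2, Entpd1, Nt5e and Lgals1. They were chosen by name, with earlier results of these data known, and all 7 are among the 25759 genes listed in each of the tables. They were followed in follicular regulatory T cells (TFR cells), Tregs that enter B-cell follicles, by sequencing poly(A) RNA in 3 libraries, 1 for each genotype. The library labelled NFATc1-deficient (N) came from Nfatc1fl/fl.Prdm1gfp/+.FIC mice, the one labelled NFATc1/αA-overexpressing (αA) from Nfatc1caaA.Prdm1gfp/+.FIC mice, and the one labelled in addition Blimp-1-deficient (PαA) from Nfatc1caaA.Prdm1gfp/fl.FIC mice. FIC is a Cre recombinase made from the Foxp3 locus, caaA a constitutively active NFATc1/αA and Prdm1 the gene of Blimp-1. All 3 libraries shared FIC, a Prdm1 allele that carries a gfp reporter, immunization with 125 µg NP-KLH in alum, a boost on day 7 and the sort of B220-CD4+BlimpGFP+CXCR5+GITRhi cells from spleen and mesenteric lymph nodes on day 10. None of the 3 is a wild-type control, the study describes FIC as active in some conventional T cells too, and neither the ages nor the number of mice behind a library are given in the sources used here. With 1 library per genotype no spread between mice could be computed and no test was made, so every interval given is a 95% counting interval that compares these libraries only.

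Tregs act on their surroundings through secreted cytokines, through enzymes on their surface and through lectins. Interleukin-10 (Il10) dampens antigen-presenting cells and T cells, TGF-β1 (Tgfb1) is secreted in a latent form that must be activated, and EBI3 (Ebi3) pairs with a second subunit to make IL-27 or IL-35. CD39 (Entpd1) and CD73 (Nt5e) act in sequence, CD39 removing phosphates from extracellular ATP to leave AMP and CD73 turning AMP into adenosine. FGL2 (Fgl2) is a fibrinogen-like protein that binds Fc receptors, and galectin-1 (Lgals1) binds sugars on the surface of activated T cells.

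The libraries held between 25465829 and 29726219 reads, and 80.6% to 83.9% of the exon reads were unique to 1 gene. Nfatc1 had an RPKM (exon reads per base of exon, scaled to the size of the library) of 63.6 in N, 62.9 in αA and 32.4 in PαA, which goes against the labels, so the names of the libraries are used below only as their labels; gene totals do not show from which exons the reads came. Prdm1 had 25.6, 24.9 and 10.0, so the library labelled Blimp-1-deficient had the lowest level. Cd4 (341 to 488 RPKM) and Cd3e (377 to 518 RPKM) were read in each library, and Foxp3, which defines Tregs, was 32.7 in N, 20.9 in αA and 15.3 in PαA. All 8 genes of the T-cell and Treg list were lower in PαA than in αA by RPKM and with TMM scaling (median log2 ratio −0.52 and −0.45), as were the mediators Il10, Tgfb1, Fgl2, Entpd1 and Nt5e; the part of this shift in their levels was not tested. Genes that mark other cells were also read: over the myeloid list (8 of 9 genes listed) the summed RPKM was 308 in N, 217 in αA and 306 in PαA, over 7 B-cell genes 17.4, 13.8 and 15.1, over 6 plasma-cell genes 116, 135 and 171, and over 6 erythroid and platelet genes 538, 2208 and 1961. Lyz2 alone gave 214, 134 and 184 RPKM of the myeloid sums. Over 7 dendritic-cell genes the sum stayed between 2.57 and 4.28, and over 6 genes of CD8 T and NK cells between 23.3 and 26.2, although Cd8a had 18, 179 and 231 reads, Cd8b1 400, 486 and 198 reads and Eomes 410, 103 and 320 reads in N, αA and PαA. In such bulk RNA, fewer cells of a kind and less RNA in each of them cannot be told apart.

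All 7 mediators were expressed above the level filter used here, an RPKM over 5 in at least 1 library, which 7017 genes passed. Lgals1 was the most abundant per kilobase in every library, with an RPKM of 526 in N, 574 in αA and 1096 in PαA, and stood between rank 98 and rank 137 of the 7017 genes. Tgfb1 came next and Nt5e after it in each library, Tgfb1 at 128, 101 and 78.5 RPKM and Nt5e at 78.2, 81.6 and 42.4 RPKM. The lower places changed hands. In N and in PαA the order below Nt5e was Fgl2, Ebi3, Il10 and Entpd1, whereas in αA it was Il10, Fgl2, Entpd1 and Ebi3. Il10 thus stood at rank 2604 among the 7017 genes in N, rank 824 in αA and rank 2879 in PαA. Entpd1 and Ebi3 in αA, at 29.2 and 27.9 RPKM, were the only neighbours in these orders whose counting intervals overlapped.

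**Figure D1:**
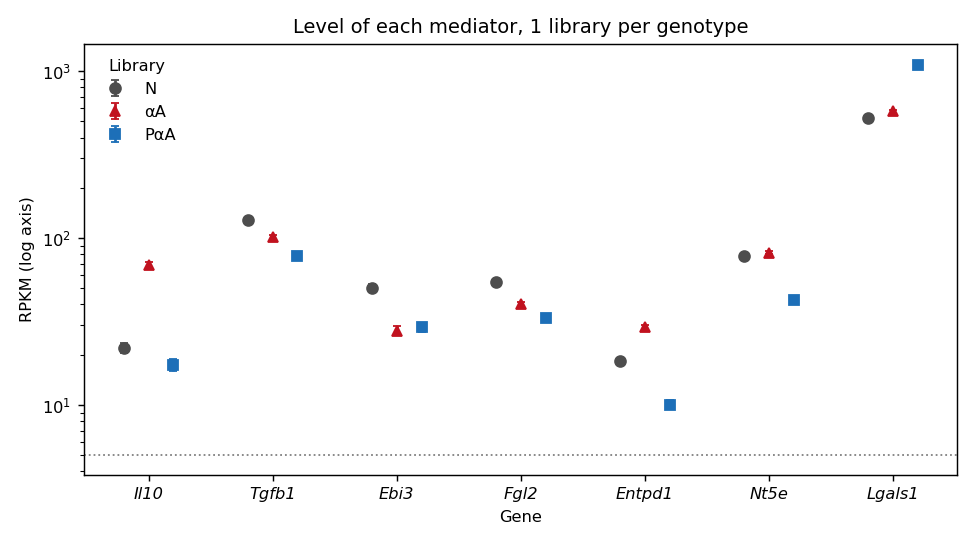
RPKM (log axis) of the 7 mediators in the libraries N (circles), αA (triangles) and PαA (squares); bars are 95% Poisson counting intervals, mostly hidden by the symbols, and the dotted line is the RPKM of 5 used as level filter. Il10, Entpd1 and Nt5e were highest in αA, Nt5e only 1.04-fold above N. Lgals1 was highest in PαA, and Tgfb1, Ebi3 and Fgl2 were highest in N.

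The mediators did not move as 1 block. Between the libraries labelled αA and N, 1 of the 7 mediators, Il10, differed by more than 2-fold, and it was higher in αA. Of all 7017 genes 4.25% differed that much either way and 1.44% were higher. Between PαA and αA, whose labels differ by the floxed Prdm1 allele, 2 of 7 differed, Il10 and Entpd1, both lower in PαA, against 4.63% of all genes either way and 2.45% lower. Between PαA and N, 1 of 7 differed, Lgals1, which was higher in PαA, against 10.3% of all genes either way and 2.57% higher. A single gene is 14.3% of the 7, so a count of 1 cannot give a smaller share. The counts in αA against N and in PαA against N each rest on 1 gene, and that in PαA against αA rests on 2, both highest in αA. All of them say little about the mediators as a set, which was chosen with earlier results of these data known. The count in PαA against N is also close to the share of all genes.

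The median log2 ratio of the 7 mediators was 0.06 in αA against N, −0.37 in PαA against αA and −0.71 in PαA against N, where all expressed genes had medians of −0.14, −0.06 and −0.19. Scaling by TMM (trimmed mean of M-values, which sets the bulk of genes to no change) raised the medians of all genes to 0.02, 0.01 and 0.04, and those of the mediators were then 0.22, −0.30 and −0.48. With either scaling 4 mediators were higher and 3 lower in αA than in N, 2 were higher and 5 lower in PαA than in αA, and 1 was higher and 6 lower in PαA than in N. The scaling also moved the split of directions: of all genes past 2-fold, 33.9% were higher in αA than in N by RPKM and 54.5% by TMM. In PαA against αA 47.1% were higher by RPKM and 29.2% by TPM (RPKM brought to a common sum over genes), and in PαA against N 24.8% by RPKM, 50.7% by TMM and 12.4% by TPM. Among the mediators past 2-fold in PαA against N, Lgals1 was the only one by RPKM, and by TPM it gave way to Entpd1 and Nt5e, both lower in PαA.

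**Figure D2:**
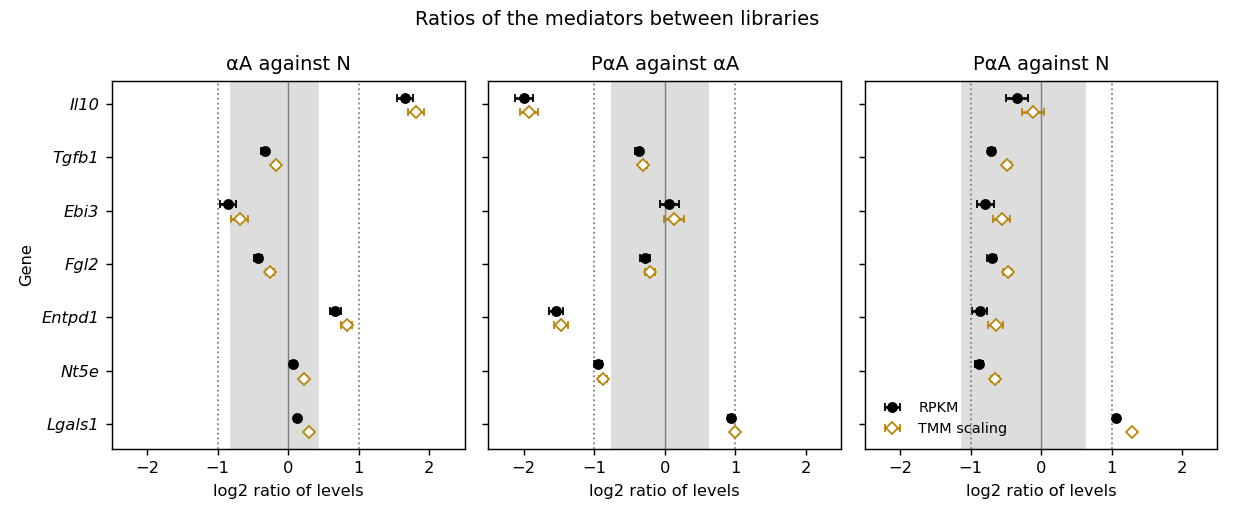
Log2 ratio of each mediator in the 3 comparisons, by RPKM (filled circles) and with TMM scaling (open diamonds), with 95% counting intervals; dotted lines mark 2-fold and the grey band holds the middle 90% of expressed genes by RPKM. Il10 and Entpd1 lay outside the band in αA against N and in PαA against αA but inside it in PαA against N. Lgals1 lay outside it in both comparisons of PαA, Ebi3 in αA against N and Nt5e in PαA against αA.

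Il10 (ENSMUSG00000016529, chromosome 1, 131019845 to 131024974, plus strand, GRCm38, 5 exons) showed the widest range. Its exon reads numbered 859, 2476 and 581 in N, αA and PαA, which are 22.1, 69.4 and 17.4 RPKM. The αA library thus stood alone at the high end, at 3.15 times the level of N (interval 2.91 to 3.40), and 0.60% of expressed genes had a larger ratio. PαA had 0.25 times the level of αA (interval 0.23 to 0.27). Against N it was slightly lower by RPKM, with a log2 ratio of −0.34 (interval −0.50 to −0.19), while with TMM scaling the interval reached past 0 (−0.11, −0.27 to 0.04). The ratio of the highest to the lowest library, 3.98, was larger than that of 98.4% of 5983 well-measured genes.

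Markers of other cells that can make IL-10 are given beside this result. Of the 8 myeloid genes, 3 macrophage genes also had their highest level in αA: Csf1r, the receptor for macrophage colony-stimulating factor (6.25, 10.6 and 6.62 RPKM in N, αA and PαA), Adgre1, which encodes F4/80 (2.30, 5.32 and 4.93 RPKM), and Cd68 (16.4, 19.5 and 18.0 RPKM). For Adgre1 and Cd68 the difference between αA and PαA was within counting error. The neutrophil gene S100a8 was lowest there (12.8, 0.83 and 11.9 RPKM), S100a9 had 235, 0 and 153 reads, Lyz2 was also lowest there, and Fcer1g and Tyrobp were highest in PαA. Of the 6 plasma-cell genes, Jchain (44.3, 58.4 and 94.8 RPKM), Sdc1, Mzb1 and Xbp1 were highest in PαA, the last 2 within counting error of αA, Tnfrsf17 had 5, 21 and 0 reads, and Irf4, which T cells express too, was lowest in PαA (20.5, 17.9 and 12.3 RPKM). The part of such cells in the Il10 reads was not tested.

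The neighbours of Il10 on chromosome 1 did not share its pattern. Il19, Il20 and Il24, cytokines of the IL-10 family from the same cluster, had at most 6 reads in any library, and Il19 and Il24 had 0 in all 3, which allows up to 3 reads or 0.10 RPKM in each. Mapkapk2, the nearest listed gene on the other side at 28726 bases, is a kinase downstream of p38 and had 64.8, 57.7 and 53.1 RPKM. Across all genes with enough unique reads, the 3 whose centred log2 levels over the 3 libraries lay nearest to Il10 among 5982 candidates were Mmp9, a matrix protease (4.57, 11.4 and 3.73 RPKM, distance 0.29), Il6st (6.85, 16.7 and 5.81 RPKM, distance 0.35) and Il1rn, the interleukin-1 receptor antagonist (2.41, 5.45 and 1.79 RPKM, distance 0.36). With 3 libraries such a likeness rests on 2 free values per gene.

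All 12 transcription factors known to act at Il10 were expressed. None differed by more than 2-fold between αA and N, where Il10 and 4.25% of all genes did. Their median log2 ratio there was −0.26, with 1 higher and 11 lower by RPKM and 3 higher and 9 lower with TMM scaling. In PαA against αA 3 of 12 passed 2-fold, all lower in PαA, where 2.45% of all genes were lower by that much. They were Prdm1, the gene floxed in PαA (log2 ratio −1.31), Ahr, the aryl hydrocarbon receptor (6.17 to 2.92 RPKM, −1.08), and Egr2, a zinc-finger factor induced by antigen-receptor signals (15.5 to 6.11 RPKM, −1.34). Maf, a direct activator of Il10 in T cells, had 105 RPKM in N, 84.5 in αA and 43.3 in PαA, so it was lower in PαA than in αA (−0.97) though just short of 2-fold. Batf, a partner of IRF4 at AP-1 sites, stayed within 131 to 141 RPKM. In PαA against N 5 of 12 were lower by more than 2-fold, where 7.77% of all genes were, and none was higher by that much. Prdm1 was again among them, and as the floxed gene it is no independent member of either count. Also among them was Ikzf3, which encodes Aiolos (68.3 and 33.9 RPKM, −1.01, and −0.78 with TMM scaling).

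The receiving side of the pathway was read as well. Il10ra, the ligand-binding receptor chain, had 37.1, 30.3 and 30.3 RPKM, and Il10rb, the shared chain, 26.4, 26.8 and 27.7 RPKM. Of the 8 genes of IL-10 receptor and signalling, none passed 2-fold in αA against N or in PαA against αA, where 4.25% and 4.63% of all genes did. In PαA against N 7.77% of all genes were lower by more than 2-fold, and 2 of the 8 were. These were Bcl3, an IκB-like nuclear factor (39.7 and 18.0 RPKM, −1.14), and Sbno2, a corepressor induced by STAT3 (6.48 and 3.11 RPKM, −1.06). With TMM scaling their log2 ratios were −0.91 and −0.83, short of 2-fold.

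Tgfb1 (ENSMUSG00000002603, chromosome 7, 25687002 to 25705077, plus strand, 9 exons) had 9251, 6711 and 4856 exon reads in N, αA and PαA, or 128, 101 and 78.5 RPKM. Its level was highest in N and lowest in PαA, and each step was below 2-fold: the log2 ratio was −0.34 (interval −0.38 to −0.29) in αA against N, −0.37 (−0.42 to −0.32) in PαA against αA and −0.71 (−0.76 to −0.66) in PαA against N. Relative to the median of expressed genes these ratios were −0.20, −0.31 and −0.52. The adjoining genes B9d2 and Ccdc97 were also highest in N, at 15.7, 13.0 and 11.9 RPKM and at 23.3, 20.1 and 14.3 RPKM. Tgfb2 and Tgfb3, the other ligands, had at most 68 reads and stayed under 1 RPKM.

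Latent TGF-β1 is displayed and opened by surface proteins, and several of these were read. Lrrc32, which encodes GARP, the anchor of latent TGF-β1 on Tregs, had 9.11, 10.7 and 5.35 RPKM, so PαA was lower than αA by just over 2-fold by RPKM and by just under it with TMM scaling (log2 ratio −0.94). Tgfb1 exceeded Lrrc32 per kilobase 14.1-fold in N, 9.45-fold in αA and 14.7-fold in PαA. The integrin chains that open the latent complex were lowest in PαA too: Itgav had 16.4, 14.6 and 6.59 RPKM (log2 ratio −1.15 in PαA against αA and −1.32 against N), and Itgb8 had 10.4, 5.80 and 3.40 RPKM (−0.77 and −1.61). Nrp1, a coreceptor, and Furin, the protease that cuts the precursor, stayed within 46.0 to 55.0 and 16.1 to 17.2 RPKM. In all, 6 of 14 genes of this list passed the level filter, of which none, 2 and 2 passed 2-fold in αA against N, PαA against αA and PαA against N, all lower in PαA. Of all genes 4.25% passed 2-fold in αA against N, 2.45% were lower by that much in PαA against αA and 7.77% in PαA against N. Of the 12 TGF-β receptor and signalling genes 9 were expressed and only Skil, a SMAD corepressor, passed 2-fold, in PαA against N (18.9 and 9.02 RPKM, −1.07, and −0.84 with TMM scaling). The receptors Tgfbr1 (18.1, 18.5 and 14.6 RPKM) and Tgfbr2 (35.5, 30.2 and 22.9 RPKM) stayed below 2-fold.

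Ebi3 (ENSMUSG00000003206, chromosome 17, 55952623 to 55957021, plus strand, 5 exons) was the mediator with its lowest RPKM in αA, though within counting error of PαA. Its exon reads were 1752, 889 and 868 in N, αA and PαA, which are 50.4, 27.9 and 29.1 RPKM. The 2 libraries labelled with caaA lay close together, with a log2 ratio between them of 0.06 and an interval that held 0 (−0.07 to 0.20). Both were below N, αA by a log2 ratio of −0.85 (−0.97 to −0.74) and PαA by −0.79 (−0.91 to −0.67). Only 4.36% of expressed genes had a smaller ratio in αA against N, although the difference stayed short of 2-fold. Il10 per kilobase was 0.44 times Ebi3 in N, 2.49 times in αA and 0.60 times in PαA.

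The partner subunits on the list of the IL-12 family had at most 3 reads. Il12a, the IL-35 subunit p35, and Il27, the IL-27 subunit p28, had 0 reads in all 3 libraries, which allows up to 0.09 and 0.12 RPKM, and Il23a had 0 reads as well. Il12b had 0, 3 and 0 reads. Among the receptor genes, Il27ra had 110, 95.2 and 69.9 RPKM and Il12rb1 27.7, 31.9 and 26.7 RPKM. Il12rb2 stayed below the level filter, at 0.99, 1.03 and 0.64 RPKM. Il6st, which encodes the gp130 chain shared by IL-6, IL-27 and IL-35 receptors, had 6.85, 16.7 and 5.81 RPKM, with log2 ratios of 1.29 (1.22 to 1.36) in αA against N and −1.53 (−1.61 to −1.45) in PαA against αA. Il23r had few reads in N, with 54, 141 and 383 exon reads or 0.73, 2.08 and 6.04 RPKM, and its log2 ratio was 3.05 (2.64 to 3.49) in PαA against N. Of the 6 receptor genes 5 were expressed, and Il6st and Il23r alone passed 2-fold in any comparison, as did 12.8% of all 7017 genes.

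Fgl2 (ENSMUSG00000039899, chromosome 5, 21372642 to 21378374, plus strand, 2 exons) had 6109, 4166 and 3213 exon reads, or 54.3, 40.4 and 33.3 RPKM in N, αA and PαA. N was highest and PαA lowest, with log2 ratios of −0.43 (−0.48 to −0.37) in αA against N, −0.28 (−0.34 to −0.21) in PαA against αA and −0.70 (−0.77 to −0.64) in PαA against N. These totals need care, since only 2.23%, 2.16% and 1.99% of the Fgl2 exon reads were counted as unique, while the 6 other mediators were at 100%. Fgl2 lies wholly inside Ccdc146 on the other strand, which had 0, 3 and 0 exon reads. No 59-base stretch of the Fgl2 transcript, the length of a read, was found in a transcript of another gene, out of 3730 stretches searched. The same search found 158 of 1096 Ebi3 stretches in 1 other gene and 9 of 8595 Nt5e stretches in 196 other genes. It found none for the remaining mediators. Across the tables, 120 expressed genes that lie inside a gene of the other strand had a median of 12.5% unique exon reads, against 100% for the 6897 others. Reads across the Fgl2 exon junction, 143, 93 and 64 of them, gave log2 ratios of −0.49 (−0.89 to −0.11), −0.44 (−0.92 to 0.03) and −0.94 (−1.39 to −0.50), the same order of libraries with wider intervals.

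The relatives of FGL2 were at or near 0. Fgl1 and Fgg had 0 reads in all 3 libraries, and Fga and Fgb had reads only in αA, 7 and 6. Fcgr2b, an inhibitory Fc receptor, had 41, 32 and 16 reads (0.16 to 0.36 RPKM). Fcgr3, an activating Fc receptor, had 4.46, 4.10 and 5.42 RPKM and alone of this list passed the level filter.

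Entpd1 (ENSMUSG00000048120, chromosome 19, 40612366 to 40741602, plus strand, 20 exons) resembled Il10 in its order of libraries. It had 2381, 3463 and 1114 exon reads in N, αA and PαA, or 18.4, 29.2 and 10.1 RPKM, so αA was highest and PαA lowest. The αA library exceeded N 1.59-fold (interval 1.51 to 1.67), and 2.59% of expressed genes had a larger ratio. PαA had 0.34 times the level of αA (0.32 to 0.37), and only 0.59% of expressed genes had a smaller ratio. Against N, PαA had a log2 ratio of −0.87 (−0.98 to −0.77) by RPKM, −0.64 with TMM scaling and −1.07 by TPM. Of 5 annotated transcripts, 2 were detected in N, 3 in αA and 1 in PαA. The genes with the most similar pattern were Sh3gl3, an endophilin (8.13, 13.4 and 4.59 RPKM, distance 0.05), 1700017B05Rik (15.0, 23.4 and 8.52 RPKM, distance 0.06) and Coro2b, a coronin (8.07, 13.1 and 4.79 RPKM, distance 0.09). Tctn3, which starts 133 bases from Entpd1, had 2.08, 3.09 and 2.23 RPKM.

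Nt5e (ENSMUSG00000032420, chromosome 9, 88327197 to 88372092, plus strand, 9 exons) was likewise lowest in PαA but had much the same level in αA and N. It had 9282, 8877 and 4315 exon reads, or 78.2, 81.6 and 42.4 RPKM. N and αA lay within 1.04-fold (interval 1.01 to 1.07), and PαA was below both, at 0.52 times αA (0.50 to 0.54) and 0.54 times N (0.52 to 0.56). Both passed 2-fold by TPM (log2 ratios −1.11 and −1.08). Neither did by RPKM (−0.94 and −0.88) or with TMM scaling (−0.88 and −0.65). Per kilobase, Nt5e exceeded Entpd1 4.25-fold in N (interval 4.06 to 4.44), 2.79-fold in αA (2.69 to 2.91) and 4.22-fold in PαA (3.95 to 4.51), so the intervals of N and PαA overlapped and αA lay below both.

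Other genes of adenosine and ATP handling were counted in the same way. Of 19 genes fixed for the list 18 were in the tables and 10 passed the level filter. None of the 10 passed 2-fold by RPKM in any comparison, though Entpd5 did in PαA against N with TMM scaling (log2 ratio 1.05). By RPKM 12.8% of all 7017 genes passed 2-fold in at least 1 comparison. The median log2 ratios of the 10 were 0.09, −0.15 and −0.28 by RPKM, and 0.25, −0.09 and −0.06 with TMM scaling. Adora2a, the adenosine receptor of T cells, had 23.0, 19.8 and 19.9 RPKM, and Adora2b had 0 reads in all 3 libraries. P2rx7, the ATP-gated channel, had 40.3, 43.6 and 25.1 RPKM, again lowest in PαA (log2 ratio −0.80 against αA). Dpp4, which anchors adenosine deaminase, was highest in N at 16.4 RPKM, with 8.64 in αA (log2 ratio −0.92) and 8.21 in PαA, just short of 2-fold below N. Entpd5, a relative of CD39 found in the secretory pathway, was highest in PαA, where Entpd1 was lowest, with 8.46, 10.1 and 15.0 RPKM.

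Lgals1 (ENSMUSG00000068220, chromosome 15, 78926725 to 78930465, plus strand, 4 exons) was the mediator with its highest level in PαA. It had 12503, 12505 and 22332 exon reads in N, αA and PαA, or 526, 574 and 1096 RPKM. N and αA lay close together at a ratio of 1.09 (interval 1.06 to 1.12), and PαA stood above both, 1.91-fold above αA (1.87 to 1.95) and 2.08-fold above N (2.04 to 2.13). The excess over N was 1.06 on the log2 scale by RPKM, 1.29 with TMM scaling, 0.86 by TPM and 0.84 after centring on genes of the same exon length, so it passed 2-fold by RPKM and TMM but not by TPM or after the centring, with PαA the higher library in these 4 settings. Lgals1 is short, with 800 bases of exon. Of the 6 plasma-cell genes, Sdc1 (0.74, 1.03 and 5.97 RPKM) and Jchain were highest in PαA, Mzb1 (4.01, 6.69 and 6.94 RPKM) and Xbp1 (46.7, 50.4 and 50.9 RPKM) were as high in αA within counting error, and Irf4 and Tnfrsf17 were lowest in PαA. Also highest in PαA was Tyrobp, a myeloid and NK-cell adaptor (25.0, 25.8 and 42.6 RPKM). The summed RPKM of the 8 myeloid genes was 306 in PαA and 308 in N, of which Lyz2 alone gave 184 and 214. By RPKM 5 of the 8 were higher and 3 lower in PαA than in N. With TMM scaling 7 were higher and 1 lower. The part of plasma and myeloid cells in the Lgals1 reads was not tested.

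Among the other galectins Lgals3 ran in parallel, with 29.4, 35.1 and 65.2 RPKM, PαA standing above N by 1.15 on the log2 scale (1.06 to 1.24), so that Lgals1 exceeded it by 16.3 to 17.9-fold in every library. Lgals9, whose product binds TIM-3, had 67.7, 78.3 and 64.2 RPKM and showed no such excess, and Lgals7 was highest in N (8.55, 2.52 and 4.49 RPKM). The surface proteins to which galectin-1 binds moved in different directions. Cd7 had 10.1, 16.4 and 68.2 RPKM, a log2 ratio of 2.05 (1.90 to 2.21) in PαA against αA and of 2.75 (2.58 to 2.94) against N. Ptprc, which encodes CD45, had 263, 185 and 115 RPKM and was lower in PαA than in N (−1.20, and −0.97 with TMM scaling), and Spn, which encodes CD43, stayed within 141 to 176 RPKM. In all 8 of the 11 genes were expressed, and 1, 1 and 3 passed 2-fold in αA against N, PαA against αA and PαA against N. The first was lower in αA, the second was higher in PαA, and of the 3 last 2 were higher and 1 was lower in PαA. Of all genes 4.25%, 4.63% and 10.3% passed 2-fold either way in these comparisons. The genes nearest in pattern to Lgals1 were Glipr2 (49.8, 54.3 and 97.5 RPKM, distance 0.07), Gpr132, a G-protein-coupled receptor of lymphocytes (28.8, 29.3 and 56.1 RPKM, distance 0.08), and Ildr1 (4.77, 5.37 and 10.8 RPKM, distance 0.09).

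**Figure D3:**
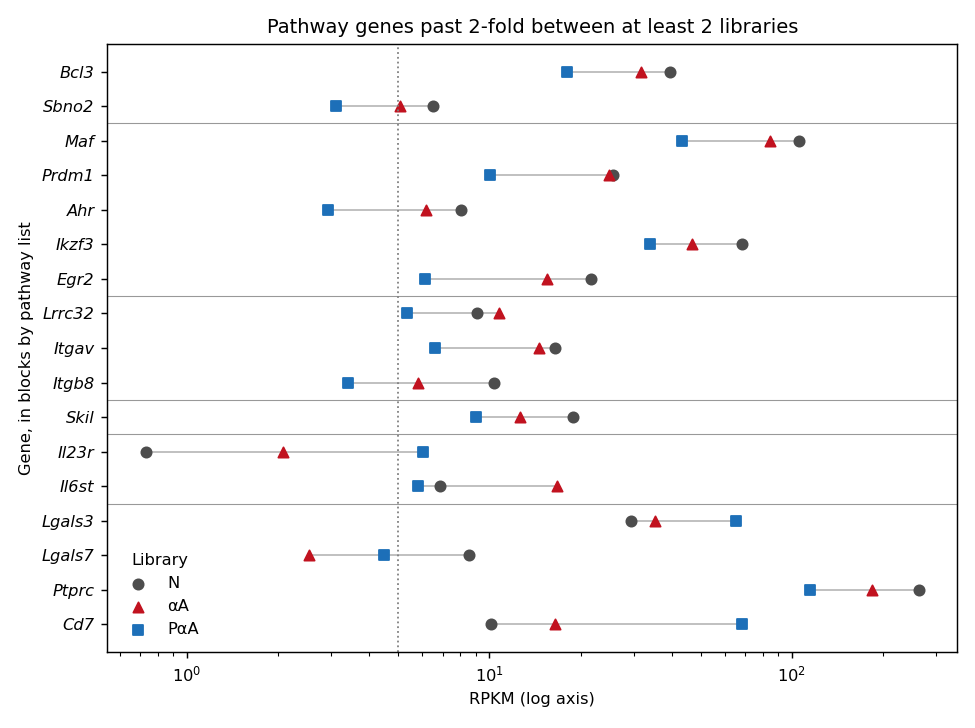
RPKM (log axis) in N (circles), αA (triangles) and PαA (squares) of the 17 pathway genes that passed the level filter and 2-fold in at least 1 comparison; lines between blocks separate the lists of IL-10 signalling, factors at Il10, TGF-β latency, TGF-β signalling, IL-12 family receptors and galectins with their counter-receptors, and the dotted line is an RPKM of 5. Il6st was highest in αA, whereas Il23r, Cd7 and Lgals3 were highest in PαA and most of the others were lowest there.

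Over the 10 lists of pathway partners, 94 of 95 genes were in the tables and 59 passed the level filter, of which the 17 in the plot of pathway genes passed 2-fold in at least 1 comparison. Of all 7017 genes 12.8% did so. The lists were written with earlier results of these data known, and the 17 include Prdm1, the floxed gene, so the count is no independent support. With TMM scaling Bcl3, Sbno2, Ikzf3, Skil, Ptprc and Lrrc32 fell short of 2-fold, while Entpd5 passed it.

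Reads in introns can come from RNA that has not been spliced, and they gave a readout that the exon levels did not use. For Il10 they were 98, 438 and 47 in N, αA and PαA, which is 3.30, 16.1 and 1.85 RPM (reads scaled to the library size, without length). αA again stood alone at the high end, and the log2 ratios were larger than in exons, 2.29 (1.97 to 2.62) in αA against N and −3.12 (−3.59 to −2.69) in PαA against αA. The medians over expressed genes with at least 50 intron reads in the pair were 0.29 and −0.29, since αA had the largest intron share of all gene reads (5.30% against 3.62% in N and 3.91% in PαA). Intron reads were 15.0% of the Il10 gene reads in αA, 10.2% in N and 7.48% in PαA.

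Entpd1 and Nt5e differed from Il10 here. Entpd1 had 200, 467 and 204 intron reads, or 6.73, 17.1 and 8.01 RPM, and Nt5e had 642, 978 and 568, or 21.6, 35.9 and 22.3 RPM. Both were highest in αA, but PαA and N lay within counting error of each other: the log2 ratio of PαA against N was 0.25 (−0.04 to 0.54) for Entpd1 introns and 0.05 (−0.12 to 0.21) for Nt5e introns, where the exons gave −0.87 and −0.88. The median over 3365 genes was 0.04. The share of intron reads was accordingly highest in PαA, at 15.5% of gene reads for Entpd1 and 11.6% for Nt5e. Reads across exon junctions followed the exon totals, with −1.13 (−1.39 to −0.88) for Entpd1 and −0.73 (−0.88 to −0.58) for Nt5e in PαA against N. Of the rest, Tgfb1 had 114 to 213 intron reads, Ebi3 33, 5 and 18, Lgals1 6, 40 and 12, and Fgl2 none. In PαA against αA the introns of Tgfb1 and Lgals1 went against their exons, with log2 ratios of 0.57 (0.21 to 0.93) for Tgfb1, where exons gave −0.37, and −1.64 (−2.71 to −0.68) for Lgals1, where exons gave 0.93. The Ebi3 introns were lowest in αA, with a log2 ratio of −2.60 (−4.31 to −1.23) against N, while its exons in αA and PαA lay within counting error of each other.

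**Figure D4:**
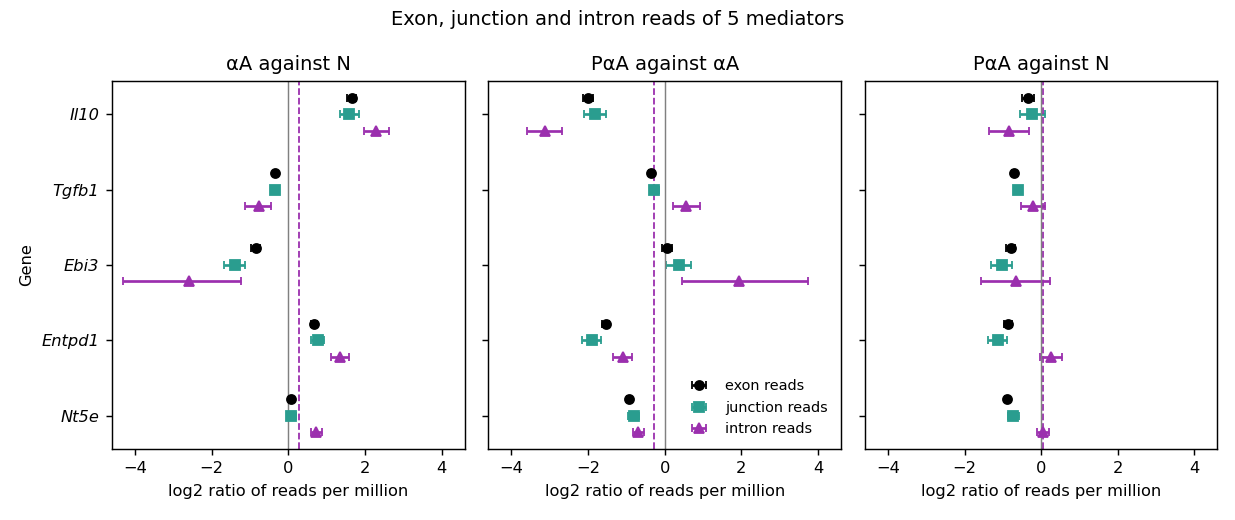
Log2 ratio of exon reads (circles), exon-junction reads (squares) and intron reads (triangles), scaled to library size, for 5 mediators in the 3 comparisons, with 95% counting intervals; the dashed line is the median intron ratio of expressed genes. The 3 read classes of Il10 pointed the same way in αA against N and in PαA against αA, while the introns of Entpd1 and Nt5e lay near 0 in PαA against N where their exons lay near −0.9.

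NFATc1 and Blimp-1 bind DNA, so the bases before the transcript starts were read for the cores of their motifs, GGAAA for NFAT and GAAAG for Blimp-1, on both strands. The cores overlap in GGAAAG, which holds both. RefSeq promoters (GRCm38.p6) were matched for Tgfb1, Ebi3, Fgl2, Nt5e and, with 2 starts, Entpd1; Il10 and Lgals1 were not matched. Shown are those windows of 250 bases before a start that overlap no annotated exon, all on the plus strand, with every core of either kind in capitals. They are chr17:55952373-55952622 for Ebi3, chr19:40659520-40659769 for the second start of Entpd1, which lies inside the gene, and chr7:25686752-25687001 for Tgfb1.
Ebi3: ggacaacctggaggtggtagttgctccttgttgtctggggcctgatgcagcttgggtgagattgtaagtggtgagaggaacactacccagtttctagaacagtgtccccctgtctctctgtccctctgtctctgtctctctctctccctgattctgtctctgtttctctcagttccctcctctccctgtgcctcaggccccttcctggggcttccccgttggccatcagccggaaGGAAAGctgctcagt
Entpd1, second start: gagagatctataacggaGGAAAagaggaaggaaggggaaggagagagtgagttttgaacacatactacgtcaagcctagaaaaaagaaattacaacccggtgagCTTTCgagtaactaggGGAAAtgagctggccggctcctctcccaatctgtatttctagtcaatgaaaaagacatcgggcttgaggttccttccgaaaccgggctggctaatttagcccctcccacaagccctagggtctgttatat
Tgfb1: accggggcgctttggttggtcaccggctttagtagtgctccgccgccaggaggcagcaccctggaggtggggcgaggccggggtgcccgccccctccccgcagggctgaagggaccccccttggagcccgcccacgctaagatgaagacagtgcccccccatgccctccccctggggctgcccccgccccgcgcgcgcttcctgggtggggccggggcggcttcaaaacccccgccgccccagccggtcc
The Ebi3 window held 1 core of each kind, merged in GGAAAG and ending 10 bases before the start. The second Entpd1 start had 2 NFAT cores and 1 Blimp-1 core, the latter on the minus strand. The first had none, in a window that overlaps an exon of Tctn3. Tgfb1, with 75.2% G and C, held none. The windows of Nt5e, with none, and of Fgl2, with 1 of each in a GGAAAG, overlap exons of the gene itself. That of Nt5e (88327359 to 88327608) lies wholly after the gene start given above, so the bases before that start were not searched. Such short cores are common: of 32817 promoter windows of the same length, 55.6% held GGAAA, 51.5% GAAAG and 22.9% GGAAAG. The longer form AGNGAAAG was in 7.30% of all windows and in none of those of the mediators. These matches describe letters in a short window, and no binding was measured in these files.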

How the data were processed

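TFR cells were sorted and 1 poly(A) library per genotype was prepared from 10 ng of total RNA and sequenced as single reads of 59 bases. Alignment to GRCm38 and counting were done by the authors in version 12 of CLC Genomics Workbench at its defaults; the annotation release is not given in the sources used here, and the kit named does not mark strand. The authors deposited, per gene, raw counts of exon, junction, intron and gene reads (in total and unique), and RPKM and TPM values with decimal commas. RPKM equalled exon reads over exon length and library total, which was recovered from these columns. Genes with an exon length of 0, 3715 of them, gave no level.

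Groups came from the sample titles. Ratios are of RPKM, with exact Clopper-Pearson intervals on the counts (95%); single RPKM values and within-library ratios used Poisson and Clopper-Pearson intervals. These cover counting error only, since PCR copies are not independent molecules, and 3 reads was taken as the floor. With 1 library per genotype no test was run. A gene was counted as different with an RPKM over 5 in at least 1 library and a ratio over 2, the study's filter with its expression value read as RPKM, a choice, since the deposited column of that name equals the total exon reads. The members and lists were chosen with earlier results of these data known, so no count over them is independent support; 1 gene of the lists is not reported here. Named genes are the members, their partners, neighbours and markers, list genes past 2-fold, and for each member spanning over 2-fold the 3 genes with the smallest Euclidean distance in centred log2 RPKM (at least 100 reads, 80% unique). Alternatives were TPM, TMM factors (edgeR 4.0.16, R 4.3.3), median-of-ratios factors, totals without 86 ribosomal protein genes, unique reads, pseudocounts of 1 and 0.1, thinning to the smallest library, lowess centring on exon length (fraction 0.3), other level and fold thresholds and, chosen after seeing the data, a filter on exon reads. Filter and intervals were tested on simulated counts. Intervals came from scipy 1.17.1, the centring from statsmodels 0.14.6, tables from pandas 2.3.3 and plots from matplotlib 3.10.9, under Python 3.11.15 with numpy 2.4.6.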

Additional observations from a re-analysis of the deposited data

How the results depend on the processing

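Of the 21 log2 ratios of the mediators (7 genes in 3 comparisons), 20 kept their sign under all 9 alternatives that recompute a ratio, and none that had a counting interval clear of 0 changed sign. The exception was Ebi3 in PαA against αA, whose interval held 0 and which ranged from −0.10 (TPM) to 0.14. Il10 ranged from 1.61 to 1.83 in αA against N and from −2.16 to −1.92 in PαA against αA.

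In αA against N, where 298 genes and 1 mediator passed 2-fold, the genes numbered 194 with a pseudocount of 1, 978 with RPKM above 1, 146 with RPKM above 10, 2172 with no level filter, 988 at 1.5-fold (with 3 mediators) and 108 at 3-fold. In PαA against αA (325 genes, 2 mediators) the same settings gave 215, 1016, 171, 1953, 1033 (4 mediators) and 110 (1 mediator, Il10), and 3 mediators passed by TMM (Lgals1 added) and by TPM (Nt5e added). In PαA against N (725 genes, 1 mediator) they gave 491, 1715, 392, 2647, 1966 (6 mediators) and 196 (0 mediators). There, centring on exon length gave 435 genes and 0 mediators, and TPM 2 mediators, Entpd1 and Nt5e in place of Lgals1. A filter on more than 5 exon reads in at least 1 library, chosen after seeing the data, gave 3775, 3856 and 4284 genes in the 3 comparisons, genes with 0 reads in 1 of the pair included, and the same count of mediators. The threshold or scaling alone makes these changes, since the reads are the same.

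No paired analysis was possible because each genotype had 1 library, so no library was left out either. With 3 reads as the floor, 0 reads of Il12a allow up to 0.07 RPKM in N and 0.09 in PαA.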
